A study of Mus musculus with 7 samples.

Results

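The genes described here are 8 integrin chains (Itga1, Itga4, Itgae, Itgal, Itgav, Itgb1, Itgb2 and Itgb7) and Cd44, taken by gene symbol from the 16156 genes measured; all 9 were found, none more than once. The libraries were made from total RNA of mouse OT-I CD8 T cells and sequenced; their transgenic receptor recognises an ovalbumin peptide. There were 3 ACLY KO libraries, from OT-I cells labelled as knocked out for ATP citrate lyase (ACLY), an enzyme that makes acetyl-CoA in the cytosol, and 4 WT libraries, from OT-I cells labelled wild type. Cells of both genotypes carried a congenic mark, entered C57Bl/6 hosts 1 day ahead of LmOVA (Listeria monocytogenes that makes ovalbumin), and were isolated on day 6 of infection. The hosts keep their own lymphocytes, the labels name neither the allele nor any Cre driver of the knockout, and they do not say whether each library came from a separate animal. The p-values therefore measure the spread between these libraries, which may be technical.

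Integrins are adhesion receptors made of an alpha and a beta chain, and the pair decides the ligand. In T cells the alpha L chain with beta 2 (LFA-1) binds ICAMs on other cells. Alpha 4 joins beta 1 (VLA-4) to bind VCAM-1 and fibronectin, or beta 7 to bind MAdCAM-1 of gut vessels. Alpha 1 with beta 1 binds collagen, alpha E with beta 7 (CD103) binds E-cadherin of epithelia, and alpha V pairs with several beta chains to bind matrix proteins such as vitronectin. CD44 is a hyaluronan receptor that is low on naive T cells and high on T cells that have met antigen.

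Gene counts summed to between 37473484 and 39692359 in KO libraries and between 45288353 and 75586011 in WT libraries. Acly itself was at 262, 62.0 and 209 CPM (read counts scaled to a common library size) in KO replicates 1 to 3, and at 276 to 414 CPM in WT libraries. The groups did not overlap, but Acly transcripts remained in every KO library, KO replicate 1 lay close to the lowest WT library, and the difference did not pass (log2 -1.003 ± 0.44, SE; edgeR adjusted p = 0.278). The origin of these transcripts was not tested. The OT-I receptor uses a V beta 5 chain, and the segments of that family held 47.3%, 23.7% and 62.2% of T cell receptor V beta counts in KO replicates 1 to 3 (95% exact Clopper-Pearson intervals 46.2 to 48.4, 23.0 to 24.3 and 61.4 to 62.9). They held 99.0%, 99.2%, 99.0% and 84.6% in WT replicates 1 to 4 (98.9 to 99.1, 99.1 to 99.3, 98.9 to 99.1 and 84.2 to 85.1); the intervals cover counting error only. The 10 CD8 T cell markers measured summed to 3829, 8731 and 8772 CPM in KO replicates 1 to 3 and to 8503 to 11077 CPM in WT libraries. T cell transcripts were thus present in every library and lowest in KO replicate 1, while the V beta 5 share was lowest in KO replicate 2. For 5 of the 10 (Cd3d, Cd3e, Cd3g, Trbc2 and Cd5) every KO library lay below every WT library, against 9.03% of all genes. The 15 B cell markers, led by Ighm and Igkc, summed to 709 to 14954 CPM in KO and 271 to 691 CPM in WT, and for 13 of 15 every KO library exceeded every WT library. The 12 macrophage and monocyte markers measured, led by Lyz2 and Vcam1, summed to 77.7 to 1335 CPM in KO and 19.6 to 37.9 CPM in WT, and for 8 of them the KO libraries all exceeded the WT libraries. The 5 neutrophil markers measured, led by S100a8 and Ngp, summed to 9.93 to 486 CPM in KO and 0.23 to 0.576 CPM in WT, and the 8 red cell and platelet markers, led by Hba-a1 and Hbb-bt, to 104 to 19644 and 2.84 to 187 CPM. Sums of dendritic cell markers (4 measured), NK cell markers (7) and CD4 T cell markers (6) overlapped between KO and WT, yet every KO library exceeded every WT library for 4 of the 7 NK cell markers (Ncr1, Tyrobp, Fcer1g and Klra8) and 2 of the 6 CD4 T cell markers. Those 2 were Cd4 itself, at 1.19 to 110.2 CPM in KO and 0 to 0.157 CPM in WT, and Cxcr5. No measured marker had a count of 0 in all 4 WT libraries. The part of other cells, and of CD8 T cells without the OT-I receptor, in the values that follow was not tested.

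In KO libraries 8 of the 9 genes lay below their WT level, and Itgae, the CD103 alpha chain, lay above it, but none passed the test. The median log2 difference, KO minus WT, was -0.74 over the 9 genes and 0.00 over all genes (-3.62e-05), of which 50% lay below 0. edgeR's quasi-likelihood test with Benjamini-Hochberg adjustment over all genes called 0 of the 9 higher and 0 lower at an adjusted p under 0.05, as it called 0% of all genes each way. At an unadjusted p under 0.05, 4 of 9 were lower (Itga4, Itgb1, Itgb2 and Itgal), against 7.89% of all genes, and 0 were higher, against 11% of all genes. Without KO replicate 2 the first count was 2, against 861 of 16156 genes. Every KO library lay below every WT library for 2 of 9, Itga4 and Itgb1, against 9.03% of all genes, and above for 0 of 9, against 9.46%. That count was 6 without KO replicate 3 (14.9% of all genes) and 5 without WT replicate 4 (15.8%). It was 2 or 3 with any other single library left out. For Itga1, Itgal and Itgb2, KO replicate 3 and WT replicate 4 were the only pair that crossed. Leaving out either thus separated these groups beforehand, so the higher counts add no support.

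Other tools and library choices called some members. DESeq2 called 3 of 9 lower (Itga4, Itgb1 and Itgb2; 3.43% of all genes), and limma voom with sample weights called 4 lower (these and Itgal; 1.68%) and 1 higher (Itgae; 5.32%). With KO replicate 1 (the largest B cell marker sum) and WT replicate 4 (the lowest V beta 5 share in WT) both left out, edgeR called Itgae higher (5.43% of all genes) and Itgav lower (4.2%). These libraries were the only pair that overlapped for Itgae, and KO replicate 1 was the only KO library not below WT for Itgav. Leaving them out thus separated the groups for both genes before the test, so these calls add no support. Without them, every KO library lay below every WT library for 6 of 9, against 26.3% of all genes. For Itga1, Itgal and Itgb2, leaving out WT replicate 4 had likewise separated the groups beforehand. Scaled instead to the summed counts of Cd3d, Cd3e, Cd3g, Cd8a and Cd8b1, 5 of 9 lay below 0, and the log2 differences of Itgav, Itgb7 and Cd44 turned positive. That scaling moved the median of all genes to 0.72, and the median of the 9 genes lay 0.825 below it (-0.11).

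**Figure D1:**
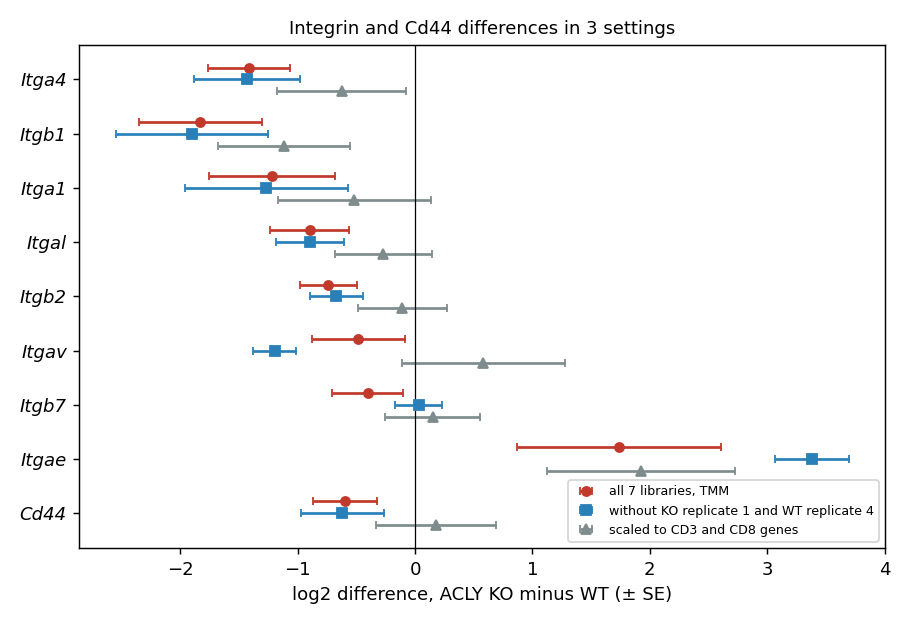
Log2 difference, KO minus WT, with its standard error for each gene under 3 settings: all 7 libraries with TMM scaling, the same without KO replicate 1 and WT replicate 4, and scaled to CD3 and CD8 genes. Itgb1, Itga4, Itga1, Itgal and Itgb2 lie left of 0 in each, Itgae lies right of 0 in each, and Itgav, Itgb7 and Cd44 cross 0 between settings.

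Itgb1 had the lowest log2 difference of the 9. This gene of the common beta 1 chain lies on the plus strand of chromosome 8 (mm10, 128685654 to 128733200). It had 1157, 455 and 2169 CPM in KO replicates 1 to 3, against 5800, 4860, 4300 and 2968 CPM in WT replicates 1 to 4 (raw counts of 19531 to 84769 in KO and 175021 to 420481 in WT). The groups did not overlap, and KO replicate 2 was the lowest library of the 7. KO libraries averaged 1260 ± 862 CPM (SD, n = 3), WT libraries 4482 ± 1184 CPM (SD, n = 4), and the log2 difference stood at -1.83 ± 0.52 (SE; edgeR adjusted p = 0.132, DESeq2 adjusted p = 0.0025).

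Itga4, which encodes the alpha 4 chain of VLA-4, lies on chromosome 2 (79255426 to 79333123, plus strand). It had 355, 145 and 432 CPM in KO replicates 1 to 3, against 848, 791, 733 and 943 CPM in WT replicates 1 to 4. Again the groups did not overlap and KO replicate 2 was lowest, while WT replicate 4, the lowest WT library for Itgb1, was the highest for Itga4. On the log2 scale KO minus WT was -1.42 ± 0.35 (SE; edgeR adjusted p = 0.102, DESeq2 adjusted p = 0.00169). In the annotation 1124 exon bases of Itga4, or 8.04%, also belong to Cerkl on the other strand; Cerkl itself was at 4.62 to 10 CPM, and whether counting used strand is not given in the sources used here.

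Promoter windows (RefSeq, GRCm38.p6, the assembly of mm10; 250 bases before the gene start to 50 after it) were found for 6 of the 9 genes, and none for Itgae, Itgal and Itgb2. The windows of Itgb1 and Itga4, the 2 genes whose groups did not overlap, are shown with that of Itgb7, the other partner of alpha 4, whose groups overlapped. Capitals mark matches on either strand to TGTGGT, a core of Runx sites, or GGGCGG, a core of Sp and KLF sites; another motif searched, CGGAAG of Ets factors, is not in these windows. No base is covered by more than 1 motif.
Itgb1, chr8:128685404-128685703, plus strand: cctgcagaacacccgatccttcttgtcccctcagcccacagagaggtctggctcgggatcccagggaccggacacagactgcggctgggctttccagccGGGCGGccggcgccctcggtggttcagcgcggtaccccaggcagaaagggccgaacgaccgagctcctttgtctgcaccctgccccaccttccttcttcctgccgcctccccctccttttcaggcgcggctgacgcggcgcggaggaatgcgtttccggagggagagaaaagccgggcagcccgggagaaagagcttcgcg
Itga4, chr2:79255176-79255475, plus strand: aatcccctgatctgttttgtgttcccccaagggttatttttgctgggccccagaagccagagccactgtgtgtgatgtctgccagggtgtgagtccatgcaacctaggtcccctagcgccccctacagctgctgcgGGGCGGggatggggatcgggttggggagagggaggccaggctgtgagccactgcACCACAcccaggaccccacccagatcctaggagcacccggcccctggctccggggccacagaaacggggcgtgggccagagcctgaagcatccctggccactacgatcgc
Itgb7, chr15:102231886-102232185, minus strand: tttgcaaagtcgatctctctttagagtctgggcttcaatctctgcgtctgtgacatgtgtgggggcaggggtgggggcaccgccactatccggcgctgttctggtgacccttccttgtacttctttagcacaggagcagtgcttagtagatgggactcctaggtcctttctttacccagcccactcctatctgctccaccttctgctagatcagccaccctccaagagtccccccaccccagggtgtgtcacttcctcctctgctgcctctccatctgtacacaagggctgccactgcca
The Itga4 window holds GGGCGG 114 bases before the gene start and a reverse TGTGGT 60 bases before it, and the Itgb1 window holds GGGCGG 151 bases before it. Itgb7 has neither. Among the windows not shown, those of Itgav and Cd44, whose groups overlapped, also hold GGGCGG, and that of Itgav holds CGGAAG. The window of Itga1 (log2 difference -1.22, groups overlapping) holds none of the motifs searched. GGGCGG was thus not confined to the genes whose groups did not overlap. Of 32851 windows of 300 bases, 35.7% hold GGGCGG, 16.8% hold TGTGGT and 16.9% hold CGGAAG. A match is only a match of letters in the reference, and nothing was measured at these sites.

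Itga1, the collagen-binding partner of beta 1 (chromosome 13, 114953096 to 115101964, minus strand), was a minor transcript. It had 11.1, 3.75 and 21.5 CPM in KO replicates 1 to 3, against 33.0, 34.4, 25.2 and 20.2 CPM in WT replicates 1 to 4. KO replicate 3 lay above WT replicate 4, so the groups overlapped, while KO replicates 1 and 2 lay below all WT libraries. Its log2 difference was -1.22 ± 0.54 (SE; edgeR adjusted p = 0.28).

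The 2 chains of LFA-1 had alike profiles. Itgal, the alpha L chain (chromosome 7, 127296260 to 127335138, plus strand), had 578, 582 and 1091 CPM in KO replicates 1 to 3, against 1645, 1363, 1731 and 847 CPM in WT replicates 1 to 4. KO replicates 1 and 2 were lower than all WT libraries, and KO replicate 3 lay above WT replicate 4. KO minus WT was -0.90 ± 0.34 on the log2 scale (SE; edgeR adjusted p = 0.213). Itgb2, the beta 2 chain (chromosome 10, 77530252 to 77565708, plus strand), had 647, 702 and 1088 CPM in KO replicates 1 to 3, against 1590, 1257, 1494 and 1081 CPM in WT replicates 1 to 4. Here KO replicate 3 and WT replicate 4 were nearly level and again the only pair that crossed. KO minus WT was -0.74 ± 0.24 on the log2 scale (SE; edgeR adjusted p = 0.167, DESeq2 adjusted p = 0.0432). Among all pairs of the 9 genes, Itgal and Itgb2 were closest over the 7 libraries, with a root mean square difference of 0.194 between their log2 profiles once each is centred on its own mean. Next were Itga1 and Itgb1, at 0.299. Genes outside the 9 lay closer, with Sytl2 at 0.114 to Itgal and Esyt2 at 0.103 to Itgb2. Dock5 was at 0.19 to Itga1 and 0.248 to Itgb1.

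Itgae stood apart in direction. The gene of the CD103 alpha chain, found on T cells of epithelia and on many naive mouse CD8 T cells, lies on chromosome 11 (73090583 to 73147446, plus strand). It had 11.5, 75.2 and 40.1 CPM in KO replicates 1 to 3, against 6.01, 6.33, 4.47 and 33.9 CPM in WT replicates 1 to 4. KO replicates 2 and 3 lay above all WT libraries, and KO replicate 1 lay above WT replicates 1 to 3 but below WT replicate 4. The log2 difference was 1.74 ± 0.87 (SE; edgeR adjusted p = 0.337), 1.02 without KO replicate 2 and 2.92 without WT replicate 4, neither passing. Without both KO replicate 1 and WT replicate 4 it was 3.38 ± 0.32 (SE; edgeR adjusted p = 0.0134), the range over all alternatives being 0.0134 to 0.674. These libraries were the only pair that overlapped, so their removal had already separated the groups.

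Its partner Itgb7 (chromosome 15, 102215995 to 102231944, minus strand) was abundant in both genotypes. It had 689, 1050 and 1122 CPM in KO replicates 1 to 3, against 1311, 826, 1100 and 1808 CPM in WT replicates 1 to 4. Only KO replicate 1 lay below all WT libraries. The log2 difference was -0.40 ± 0.30 (SE; edgeR adjusted p = 0.529); it was 0.03 without KO replicate 1 and WT replicate 4 together and 0.15 when scaled to CD3 and CD8 genes.

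Itgav, the alpha V chain (chromosome 2, 83724397 to 83806916, plus strand), had 47.5, 19.6 and 14.0 CPM in KO replicates 1 to 3, against 37.7, 40.4, 38.7 and 34.3 CPM in WT replicates 1 to 4. KO replicate 1 was the highest of the 7, whereas KO replicates 2 and 3 were the lowest. The former also held the largest sums of B cell, macrophage and monocyte, neutrophil, red cell and platelet, NK cell and CD4 T cell markers. Of the 12 macrophage and monocyte markers, 11 were highest in KO replicate 3, and 1, Lyz2, in KO replicate 1. The part of any of these cells in Itgav was not tested. KO minus WT was -0.48 ± 0.39 on the log2 scale (SE; edgeR adjusted p = 0.567), and -1.17 without KO replicate 1. Without that library and WT replicate 4 it was -1.20 ± 0.19 (SE; edgeR adjusted p = 0.0263). KO replicate 1 was the only KO library not below WT, so its removal had already separated the groups. Scaled to CD3 and CD8 genes over all 7 libraries, the log2 difference of Itgav was 0.58. Of its exon bases, 5.9% also belong to Gm13684 on the other strand, itself at 1.02 to 2.69 CPM.

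Cd44 (chromosome 2, 102811141 to 102901665, minus strand) had 128, 66.1 and 149.7 CPM in KO replicates 1 to 3, against 169, 142, 195 and 187 CPM in WT replicates 1 to 4. KO replicate 2 was the lowest, and KO replicate 3 lay within the WT range. The log2 difference was -0.60 ± 0.27 (SE; edgeR adjusted p = 0.298), -0.32 without KO replicate 2, and 0.18 when scaled to CD3 and CD8 genes. These are counts of the whole gene and do not separate the splice forms of CD44.

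**Figure D2:**
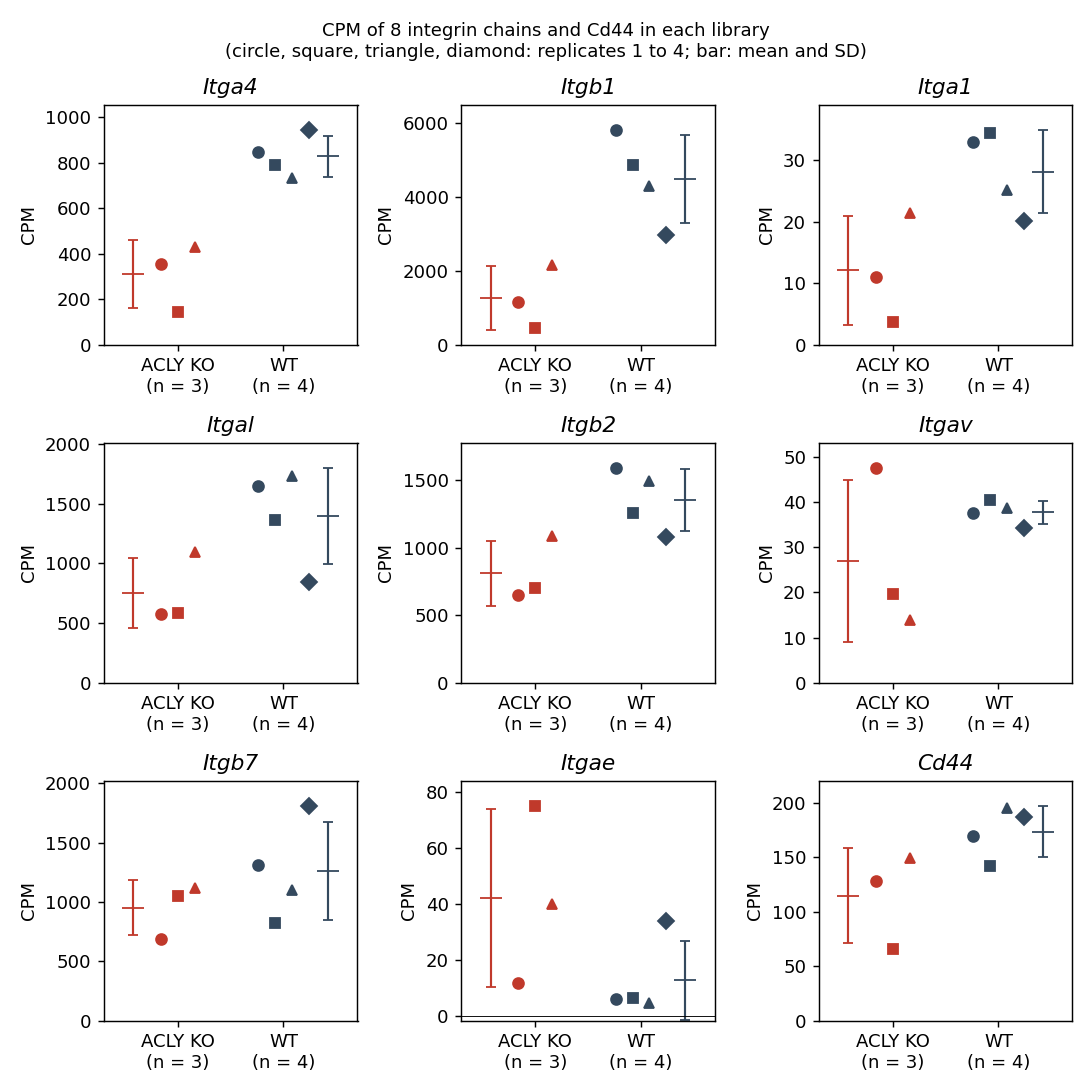
CPM of each gene in the 3 KO libraries and 4 WT libraries, with a mean and SD bar beside each group. Itga4 and Itgb1 are the panels without overlap; WT replicate 4 (diamond) is far from the other WT libraries for Itgae, and KO replicate 2 (square) is the lowest library for Itga4, Itgb1, Itga1 and Cd44.

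For 4 of the 9 genes (Itga1, Itga4, Itgb1 and Cd44) the KO libraries stood in the order of their V beta 5 share, with replicate 2 lowest and replicate 3 highest, as they did for 14.9% of all genes. For 3 others (Itgal, Itgb2 and Itgb7) replicate 1 was lowest and replicate 3 highest, and Itgae and Itgav had orders of their own. In bulk RNA fewer cells with a transcript and less transcript per cell cannot be told apart. Relative to 100 counts of the CD3 and CD8 genes of the same library, Itgb1 was at 61.7, 8.97 and 44.3 counts in KO replicates 1 to 3, against 95.3, 92.4, 81.7 and 63.0 in WT replicates 1 to 4. Its groups still did not overlap, though KO replicate 1 and WT replicate 4 were nearly level. Itga4 on the same basis was at 18.9, 2.86 and 8.81 counts in KO replicates 1 to 3, against 13.9, 15.0, 13.9 and 20 in WT replicates 1 to 4. KO replicates 2 and 3 stayed below all WT libraries and KO replicate 1 came to lie among them. Cd44 was at 6.82, 1.3 and 3.06 counts in KO and 2.78, 2.71, 3.7 and 3.97 in WT, with the highest and the lowest library both KO.

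Levels of different genes were compared per kb of annotated exon. In KO libraries Itgb7 (344 ± 83.8 CPM per kb), Itgb1 (309 ± 211) and Itgb2 (266 ± 78.7) had overlapping ranges (SD, n = 3). Next in KO came Itgal (114 ± 44.9), which overlapped Itgb1, then Itga4 (22.2 ± 10.6), Cd44 (16.9 ± 6.4), Itgae (9.23 ± 6.96) and Itgav (2.52 ± 1.67), each overlapping its neighbour in that order. Itga1 (0.651 ± 0.479) was last; its highest KO library (1.15) lay just under the lowest for Itgav (1.3), though the intervals of mean ± SD overlapped. In WT libraries Itgb1 led with 1098 ± 290 CPM per kb (SD, n = 4), above Itgb7 (455 ± 150) and Itgb2 (444 ± 75.4), which overlapped. Then came Itgal (213 ± 60.7), Itga4 (59.3 ± 6.4), Cd44 (25.6 ± 3.41), Itgav (3.52 ± 0.239), Itgae (2.77 ± 3.1) and Itga1 (1.51 ± 0.361); of these 6, Itgae overlapped Itgav and Itga1, and the other neighbours did not overlap. Such values depend on the annotated exon length, which was longest for Itga1 and Itga4 (18599 and 13978 bases); which of these exons the cells used was not measured.

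Ratios of partner chains within a library do not depend on the scaling of libraries. The alpha 4 to beta 7 ratio was 0.102, 0.0274 and 0.0762 in KO replicates 1 to 3, against 0.128, 0.19, 0.132 and 0.103 in WT replicates 1 to 4. All KO libraries lay below all WT libraries, though KO replicate 1 and WT replicate 4 almost met. The alpha 4 to beta 1 ratio overlapped, with KO at 0.0803 ± 0.0193 (SD, n = 3) and WT at 0.0582 ± 0.0232 (SD, n = 4). The alpha 1 to beta 1 ratio was higher in each KO library, with KO at 0.00203 ± 0.000193 (SD, n = 3), WT at 0.00139 ± 0.00015 (SD, n = 4) and no overlap.

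The alpha L to beta 2 ratio was nearly level, with KO at 0.422 ± 0.0409 (SD, n = 3) and WT at 0.472 ± 0.0757 (SD, n = 4). The alpha E to beta 7 ratio was 0.0101, 0.0433 and 0.0216 in KO replicates 1 to 3, against 0.00277, 0.00463, 0.00246 and 0.0114 in WT replicates 1 to 4, where WT replicate 4 overlapped KO replicate 1. The alpha V to beta 1 ratio was 0.0156, 0.0164 and 0.00245 in KO and 0.00247 to 0.00439 in WT. Another 3 ratios were chosen after the values were seen. Between beta chains, beta 1 to beta 2 was 1.34, 0.484 and 1.49 in KO replicates 1 to 3, against 2.73, 2.89, 2.15 and 2.05 in WT replicates 1 to 4, without overlap. Both others overlapped: beta 1 to beta 7 was 0.294 to 1.31 in KO and 1.11 to 3.99 in WT, and alpha 4 to alpha L was 0.117 to 0.289 in KO and 0.199 to 0.523 in WT.

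**Figure D3:**
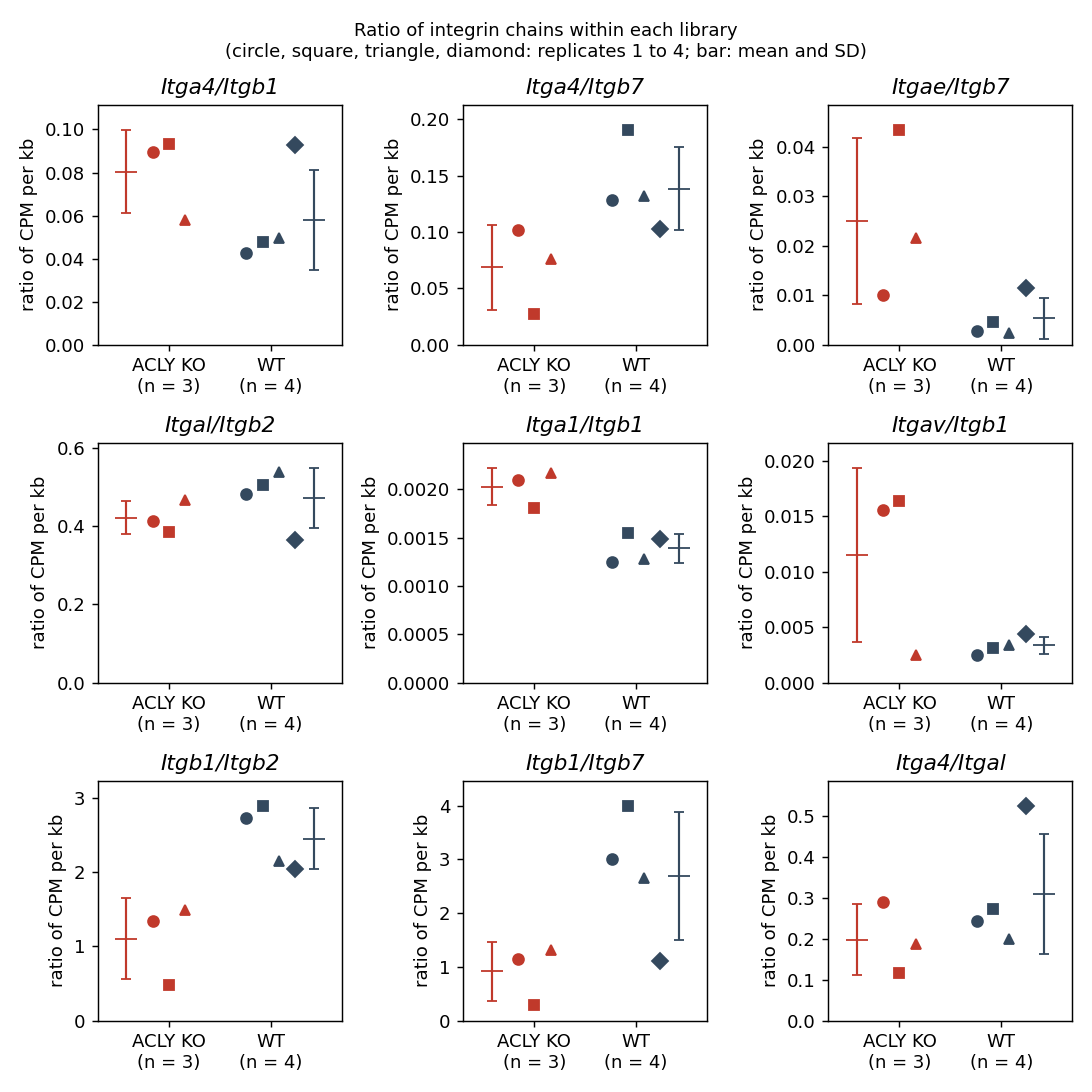
Ratio of CPM per kb of 2 integrin chains within each library, with a mean and SD bar beside each group (3 KO libraries, 4 WT libraries). The ratios Itga4/Itgb7 and Itgb1/Itgb2 lie lower in KO without overlap, Itga1/Itgb1 lies higher without overlap, and the other 6 overlap.

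The other integrin chains lay mostly above their WT level. Of 19 other chains 15 were measured, 4 below 0 and 11 above, with a median log2 difference of 0.45, and 0 passed the test. At an unadjusted p under 0.05, 3 were higher, against 11% of all genes, and 0 lower, against 7.89%. Itga9, the chain with the smallest p, had 7.19, 1.98 and 14.4 CPM in KO replicates 1 to 3, against 0 to 0.442 CPM in WT libraries. Itgb5, a partner of alpha V, had 19.2, 1.02 and 24.6 CPM in KO replicates 1 to 3, against 1.31 to 2.97 CPM in WT. Itga9 lay above all WT libraries in every KO library, and Itgb5 overlapped through KO replicate 2. KO replicate 2 had the lowest KO value of both genes and of the macrophage and monocyte marker sum (1335, 77.7 and 1299 CPM in KO replicates 1 to 3); the part of such cells was not tested.

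Genes that promote or restrain integrin activity, which the list does not separate, or that link integrins to the cytoskeleton lay mostly below their WT level. Of 35 listed 29 were measured, 21 below 0 and 8 above, with a median log2 difference of -0.21, and 0 passed. At an unadjusted p under 0.05, 7 were lower, against 7.89% of all genes, and 1 higher, against 11%. Itgb1bp1, an adaptor that binds the beta 1 tail, had 41.2, 47.5 and 51.2 CPM in KO replicates 1 to 3, against 74.6, 86.4, 67.6 and 72.3 CPM in WT replicates 1 to 4, without overlap (log2 -0.69 ± 0.14, SE; edgeR adjusted p = 0.0757). Parvb, an actin-linking parvin, was at 0.512 to 3.87 CPM in KO and 0 to 0.179 CPM in WT. Talin (Tln1), which opens the integrin head, and kindlin-3 (Fermt3), its helper in blood cells, were picked after their values were seen. Tln1 averaged 752 ± 180 CPM over KO libraries (SD, n = 3) against 1137 ± 205 CPM over WT libraries (SD, n = 4). Its groups overlapped, with KO replicate 3 at 960.5 CPM above WT replicate 4 at 913 CPM (edgeR adjusted p = 0.212). The log2 difference of Fermt3 was 0.03.

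Among 21 partners and linkers of CD44, 16 were measured, 10 below 0 and 6 above, with a median log2 difference of -0.29, and 0 passed. At an unadjusted p under 0.05, 4 were lower, against 7.89% of all genes, and 5 higher, against 11%. Cd74, the invariant chain of antigen-presenting cells that also pairs with CD44, had 11072, 398 and 769 CPM in KO replicates 1 to 3, against 4.68 to 20.8 CPM in WT. The B cell marker sum was 14954, 1352 and 709 CPM in those KO libraries, and most other marker sums were also largest in KO replicate 1. The part of such cells in Cd74 was not tested. Spn, the sialomucin CD43, chosen once values were known, stood at 180, 157 and 205 CPM in KO replicates 1 to 3, against 253 to 480 CPM in WT.

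Of 22 integrin ligands 11 were measured, 2 below 0 and 9 above, with a median log2 difference of 1.24, and 0 passed. At an unadjusted p under 0.05, 3 were higher, against 11% of all genes, and 0 lower, against 7.89%. Vcam1, the VLA-4 ligand of vessels and macrophages, had 126, 12.5 and 309 CPM in KO replicates 1 to 3, against 2.90 to 5.76 CPM in WT. Fn1, fibronectin, had 28.8, 1.26 and 5.55 CPM in KO replicates 1 to 3, against 0.0509 to 0.314 CPM in WT. For both, every KO library exceeded every WT library; Vcam1 is also on the macrophage and monocyte marker list, and the part of such cells in these values was not tested.

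**Figure D4:**
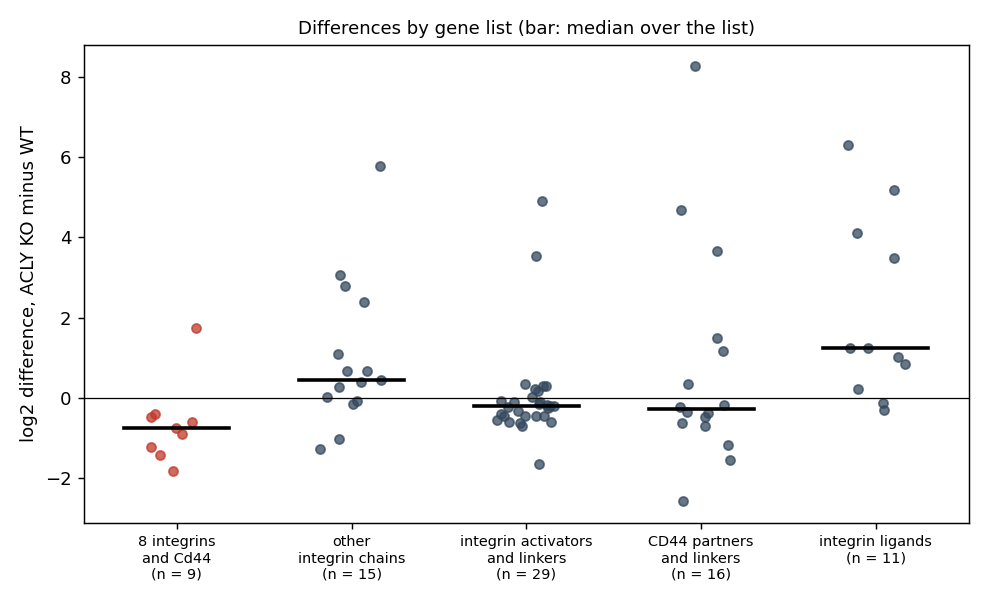
Log2 difference, KO minus WT, of each measured gene of the 9 and of 4 related lists, with the median of each list as a bar. The medians are -0.74 for the 9 genes, 0.45 for other integrin chains, -0.21 for activators and linkers, -0.29 for CD44 partners and 1.24 for ligands (TMM scaling). The list labelled activators and linkers also holds genes that restrain integrin activity.

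Genes whose profiles were nearest to a member were found among 9844 named genes with a mean log2 CPM of at least 1, as the root mean square difference of centred log2 CPM over the 7 libraries. Nearest to Itgb1 were Smyd1 (0.191), Nrp1 (0.241) and Dock5 (0.248), and Dock5 was also first for Itga1 (0.19), followed by Rap1gap2 (0.27) and Trdv2-2 (0.275). Nrp1, the coreceptor neuropilin-1, had 63.8, 18.2 and 97.7 CPM in KO replicates 1 to 3, against 245, 151, 186 and 107 CPM in WT replicates 1 to 4. Niban1 (0.176), Hip1 (0.188) and Kcnk5 (0.189) were nearest to Itga4, and Sytl2 (0.114), Abca2 (0.122) and Nbeal2 (0.141) to Itgal. Sytl2, a synaptotagmin-like protein of vesicle docking, had 44.3, 37.2 and 76.8 CPM in KO replicates 1 to 3, against 124, 106, 116 and 68.5 CPM in WT replicates 1 to 4.

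Itgb2 was nearest to Esyt2 (0.103), Svil (0.107) and Capn2 (0.107), the last a calpain protease. Cd44 was nearest to Cdin1 (0.104), Mapre2 (0.133) and Ints7 (0.133), Itgav to Rps6ka5 (0.104), Tmem170 (0.133) and Pcgf3 (0.143), and Itgb7 to Tagln2 (0.135), Cdca7l (0.151) and Septin6 (0.153). Itgae had no close match, with Xcl1 at 0.44, Mrpl23-ps1 at 0.461 and Fam174b at 0.485. Xcl1, a chemokine for cross-presenting dendritic cells, had 2.38, 9.52 and 3.58 CPM in KO replicates 1 to 3, against 0.579, 0.628, 0.845 and 5.05 CPM in WT replicates 1 to 4, so that WT replicate 4 was again far above the other WT libraries.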

How the data were processed

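The tools named per the submitters' processing notes are Trim Galore 0.6.0, STAR 2.7.8 and DESeq2, with mm10 as build; how reads were counted, with which annotation and strand setting, and how genes were filtered is not given in the sources used here. Deposited by the authors were raw counts of 16156 genes in 7 libraries, and log2 CPM of the same genes, which equalled edgeR's TMM-scaled values (prior count 2) within 4.99e-09.

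TMM-scaled CPM were derived here from those counts. Genotypes were compared over all 7 libraries by edgeR 4.0.16 under R 4.3.3 (quasi-likelihood test, genotype as the only term, Benjamini-Hochberg adjustment over all genes, threshold 0.05); filterByExpr removed 0 genes. Standard errors come from the same fit. Scripts were tested on simulated data. Coordinates and exon lengths are from GENCODE M21, which held 16136 of the genes. A count of 3 equals 0.0397 to 0.0801 CPM before TMM scaling.

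The members, lists, ratios and named genes were chosen with earlier results of these data known. The rule named all members, the 2 genes of smallest p in each related list (1 of them is not reported here), the 3 nearest profiles, and the 2 most abundant genes of each marker list; unnamed gene models were skipped. Alternatives were other scalings, no filter or a mean count of 10, DESeq2 1.42.0, limma 3.58.1 voom, a replicate block, and libraries left out.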

Additional observations from a re-analysis of the deposited data

Results flagged for a closer look

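In 3 of 19 groups of 4 WT values examined (the 9 genes, 9 chain ratios and the V beta 5 share), the extreme library was farther from the others than Dixon's 95% limit. For independent groups of normal values, chance does this in about 1 of 20. These 19 groups share the same 4 libraries and the ratios reuse the genes, so 3 of 19 cannot be set against that rate. In each of the 3 groups the extreme library was WT replicate 4. Its Itgae level was 33.9 CPM, where WT replicates 1 to 3 had 4.47 to 6.33 CPM. Its alpha 4 to beta 1 ratio was 0.0927, against 0.0427 to 0.0497 in those libraries. Its V beta 5 share of V beta counts was 84.6%, against 99.0% to 99.2% in them. The cause was not tested.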

How the results depend on the processing

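Of 16 alternatives, the one without a filter repeats the main fit, since filterByExpr removed 0 genes. Over all 16, 130 of 144 log2 differences of the 9 genes kept their direction without passing the threshold and 10 kept it and passed. The other 4 reversed: Itgav (0.58), Itgb7 (0.15) and Cd44 (0.18) when scaled to CD3 and CD8 genes, where the median of all genes moved to 0.72, and Itgb7 (0.0315) without KO replicate 1 and WT replicate 4 together. Itgb1 stayed below 0 in all 16 (-2.48 to -1.12; edgeR, DESeq2 and voom adjusted p = 0.0025 to 0.322), as did Itga4 (-1.73 to -0.63; adjusted p = 0.00169 to 0.487), and Itgae stayed above 0 (1.02 to 3.38). Itga1 (-1.93 to -0.52), Itgal (-1.27 to -0.27) and Itgb2 (-1.01 to -0.11) also stayed below 0 in all 16. Scaled to CD3 and CD8 genes, 293 genes were called higher and 0 lower, 5 of the 9 lay below 0, and 0 had an unadjusted p under 0.05 in the lower direction, as did only 24 of all 16156 genes. DESeq2 called 1032 genes higher and 520 lower, with 3 of the 9 lower. voom called 860 higher and 272 lower, with 1 of the 9 higher, 4 lower, and 7 lower at an unadjusted p under 0.05, as were 1728 of all 16156 genes. Without KO replicate 1 and WT replicate 4 together, 864 genes were called higher and 668 lower, 1 of the 9 each way. All KO libraries then lay below all WT libraries for 6 of the 9, against 26.3% of all genes. Their removal had itself separated the groups for Itga1, Itgal, Itgb2 and Itgav. Leaving out 1 library at a time gave 0 to 142 genes higher and 0 to 48 lower: leaving out KO replicate 1 gave 111 and 48, leaving out KO replicate 2 gave 118 and 2, 142 and 47 without KO replicate 3, then 108 and 21 with WT replicate 4 left out. None of the 9 was called in those 7 fits, and 8 lay below 0 in each. In the lower direction 2 to 6 had an unadjusted p under 0.05, against 776 to 1765 of 15659 to 16156 genes. All KO libraries lay below all WT libraries for 2 to 6 of the 9, the 6 being without KO replicate 3 (14.9% of all genes). KO replicate 3 was the only KO library not below all WT libraries for Itga1, Itgal, Itgb2 and Cd44. Leaving it out thus separated these groups beforehand. The cause of these changes was not tested.

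KO and WT libraries share only replicate numbers. Deviations from the group mean correlated at -0.118, -0.00851 and 0.114 for numbers 1, 2 and 3, and at -0.141 to 0.161 between unlike numbers. With so few libraries these values cannot settle whether the numbers pair the libraries. The replicate block, with WT replicate 4 left out, called 0 genes higher and 0 lower, with Itgb1 at -2.25 (edgeR adjusted p = 0.237), Itga4 at -1.48 (0.24), Itgae at 2.59 (0.238), Itgal at -1.14 (0.228), Itgb2 at -0.87 (0.24), Itga1 at -1.65 (0.321), Itgav at -0.74 (0.438), Cd44 at -0.63 (0.27) and Itgb7 at -0.18 (0.798). The smallest count of the 9 genes was 161, for Itga1 in KO replicate 2, so counting error is small beside the spread between libraries.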
